A study of Mus musculus with 12 samples.

Results

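The course from fibroblasts to induced pluripotent stem (iPS) cells has a day-1 stage whose expression does not always lie between its ends, and the genes that left that range are described here. For each gene the mean of the 3 day-1 arrays was set against the midpoint of the iPS mean and the fibroblast mean, and the gene was kept where the day-1 mean lay above both end means or below both. Of 9539 mouse genes measured by a probe set with 1 gene symbol, 2466 had a day-1 mean above both ends, 25.9% of all, and 1497 had one below both, 15.7%. Here a rise or a dip means a gene that passed a stricter rule. That rule asked for a distance past the nearer end group, termed the overshoot, of at least 1 on the log2 scale, which is 2-fold, and for an adjusted p under 0.05 in limma against both ends at once. By that rule 95 genes were above both ends, 0.996% of those tested, and 56 were below both, 0.587%.

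The series used 12 Affymetrix arrays, 9 of which belong to this course. Day-1 cells, called OT-1D in the labels, were fibroblasts at passage 3 taken from mice that descend from an Oct4 and Tet1 iPS line, moved from feeder medium into ES medium with doxycycline for 1 day, on an OG2-GFP/Rosa26-M2rtTA background. The iPS cells were a line, OT#b, induced with Oct4 and Tet1, at passage 10, with the same background label, grown on mitomycin C treated embryonic fibroblast feeders. The fibroblasts were at passage 3 and carried no doxycycline label, and their strain labels read OG2-GFP/Rosa26-M2rtTA, M3rtTA and M4rtTA on the 3 arrays. R1 embryonic stem (ES) cells, strain 129, passage 20, on the same kind of feeders, were used as an outside comparison, and a short plating that removes feeders is described for ESCs. Doxycycline, the ES medium and the source of the fibroblasts differ together between day-1 cells and fibroblasts and cannot be told apart. A single iPS line stands for the end of the course, and separate cultures are not stated for the 3 arrays of any group, so the p-values measure the spread between these arrays, which may be technical.

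In reprogramming from secondary fibroblasts, an integrated factor transgene is switched on by doxycycline through a reverse tetracycline transactivator, so that the cells start together. The early hours are known for changes in the cell cycle, the cytoskeleton, metabolism and signalling through BMP and TGF-beta, while most of the pluripotency network responds later. Some of these changes are transient: a gene may respond to the factors or to the new medium in fibroblasts and yet be low in the finished pluripotent line. ES medium holds serum, leukaemia inhibitory factor and a reducing agent, each of which acts on cells by itself.

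The arrays of a group were close to each other, with correlations across genes of 0.996 to 0.997 among day-1 arrays, 0.994 among iPS arrays and 0.991 to 0.994 among fibroblast arrays. Day-1 arrays correlated with iPS arrays at 0.694 to 0.706 and with fibroblast arrays at 0.927 to 0.944. Gene-level array medians were 8.28 to 8.31 in day-1 cells, 7.99 to 8.08 in the iPS line and 8.27 to 8.32 in fibroblasts, so the median departure of all genes from the midpoint was 0.12 rather than 0, and departures are to be read against it. Pou5f1, which encodes Oct4, checked the labels: it stood at 11.85, 11.73 and 11.81 in day-1 cells, 12.01, 12.04 and 11.96 in the iPS line and 4.96, 5.24 and 4.91 in fibroblasts. Pou5f1 RNA was thus at a level near that of the iPS line on all day-1 arrays, between the ends and outside neither. Whether it came from the induced factor or from the cells' own gene was not tested. Tet1, the other induced factor, was 7.46 ± 0.02 in day-1 cells, 10.25 ± 0.08 in the iPS line and 6.68 ± 0.17 in fibroblasts (SD, n = 3 each), also between the ends.

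Most departures from the midpoint did not meet the overshoot rule. Against the midpoint itself 803 genes were called higher (8.42%) and 559 lower (5.86%), at an adjusted p under 0.05 and a departure of at least 1. The share of higher calls depended on scaling: it was 59% with the values as deposited, 49.3% after quantile normalization and 44.7% with arrays shifted to a common median. Of the 803, 225 had a day-1 mean between the ends, 483 lay outside without reaching the overshoot rule, and 95 were called above both. Of the 559, 208 lay between, 295 outside and not called, and 56 were called below both. Among calls outside both ends, 62.9% were rises, against 57.1% after quantile normalization and 53.7% with a common median. Scaling therefore bears on the balance of rises and dips. Most calls were kept: of the 95 rises, 81 were among the 88 called after quantile normalization and 87 among the 87 with a common median. Of the 56 dips, 54 were among the 66 called after quantile normalization and 56 among the 75 with a common median. The rescaled dips thus held further genes that are not described here.

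**Figure D1:**
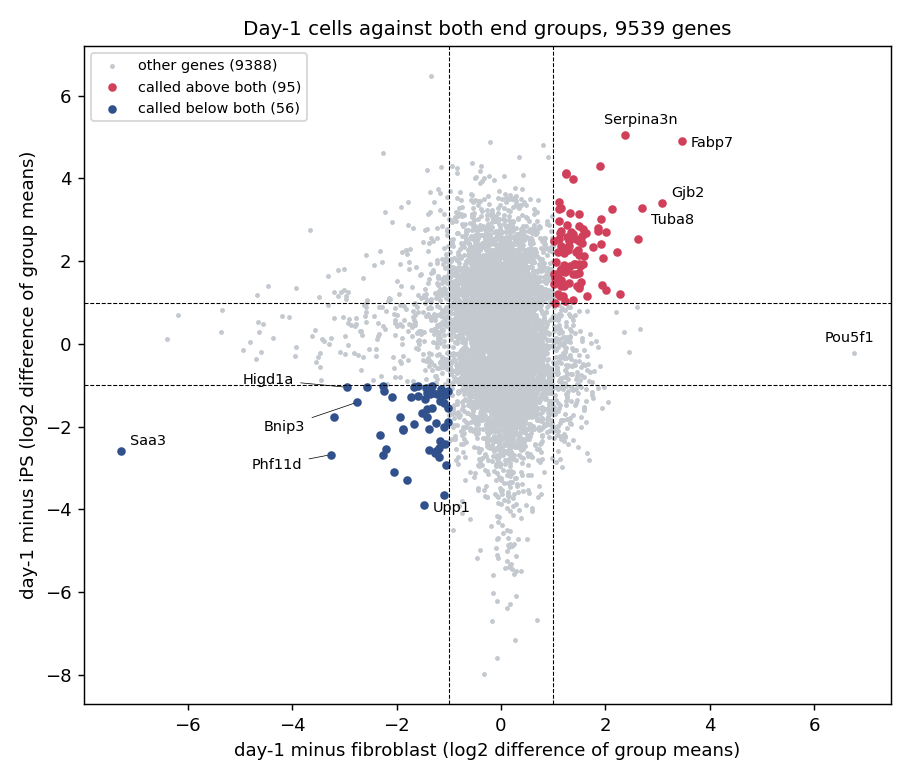
Each point is a gene, placed by the log2 difference of day-1 cells from fibroblasts (x axis) and from iPS cells (y axis), with dashed lines at a difference of 1 either way. The 95 genes called above both ends fill the upper right corner and the 56 called below both fill the lower left, while Pou5f1 lies far right near 0 on the y axis with like levels in day-1 and iPS cells. Both differences use the same 3 day-1 arrays.

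The rises were mostly small steps past the fibroblasts. On every one of the 95, the 3 day-1 arrays lay above all 6 arrays of the end groups, which held for 1495 genes (15.7%) without any test. The nearer end was the fibroblast group for 82 and the iPS group for 13. In 61 of the 95 the end groups differed by less than 1, in 33 the iPS cells were lower than the fibroblasts by 1 or more, and in 1, Car2, they were higher. Over all 9539 genes these counts were 4642, 2822 and 2075. The median overshoot was 1.30 and the highest 3.47, with 8 genes at 2 or more and 69 under 1.5. The dips behaved alike in size: all 56 had day-1 arrays below every end array, where 847 genes (8.88%) did so without a test, the median overshoot was -1.22, the furthest -2.68, 6 genes were at -2 or beyond and 43 within -1.5. Here the nearer end was the fibroblasts in 34 genes and the iPS cells in 22. The ends of the dips differed by less than 1 in 36 genes, with iPS cells lower by 1 or more in 7 and higher in 13. These are to be read beside the same counts over all genes. The array signal is RNA of a whole culture, so fewer cells of a type and less RNA per cell cannot be told apart.

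Fabp7, a fatty acid binding protein best known from radial glia, rose furthest. Its log2 levels were 10.13, 10.14 and 10.20 in day-1 cells, 5.30, 5.10 and 5.36 in the iPS line and 7.05, 6.39 and 6.64 in fibroblasts. All day-1 arrays were over 3 log2 units above the highest fibroblast array, and the overshoot was 3.47 ± 0.13 (SE), 11-fold (limma adjusted p = 1.1e-08). Gjb2, which encodes the gap junction protein connexin 26, had 9.13, 9.0 and 9.08 in day-1 cells, 5.54, 5.97 and 5.46 in the iPS line and 6.37, 5.46 and 6.16 in fibroblasts. The end groups overlapped each other and the day-1 arrays stood apart, with an overshoot of 3.08 ± 0.19, 8.43-fold (adjusted p = 3.2e-07). Tuba8, an alpha tubulin of restricted distribution, had 10.01, 10.06 and 9.89 in day-1 cells, 6.34, 7.03 and 6.75 in the iPS line and 7.56, 7.22 and 7.06 in fibroblasts, an overshoot of 2.71 ± 0.15 (adjusted p = 2.2e-07). Map2, a microtubule-associated protein of neuronal dendrites, had 9.25, 9.27 and 9.26 in day-1 cells, 6.86, 6.48 and 6.81 in the iPS line and 6.70, 6.52 and 6.71 in fibroblasts. Its day-1 arrays were close to each other and clear of both ends by 2.54 ± 0.10 (adjusted p = 1.1e-08). Map7d3, which also binds microtubules, was 8.23 in day-1 cells, 5.49 in the iPS line and 6.37 in fibroblasts, with R1 ES cells at 7.38. Of 14 measured neural genes, Fabp7 and Map2 were the 2 called above both, where 0.996% of all genes were. Day-1 means were above both ends in 6 (42.9%, against 25.9% of all genes) and below both in 0 (against 15.7%). Nes, the intermediate filament nestin, was above both by 0.28 ± 0.14 (adjusted p = 0.29). The 10 neural crest and Schwann markers had 0 genes called, and their mean per array was 7.77 to 7.89 in day-1 cells, 7.35 to 7.50 in the iPS line and 7.69 to 7.73 in fibroblasts. For the 21 epithelial markers, where Gjb2 was the only gene called, the mean was 6.19 to 6.30 in day-1 cells, 7.78 to 7.86 in the iPS line and 5.83 to 6.02 in fibroblasts. The part of such cells in these rises was not tested.

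**Figure D2:**
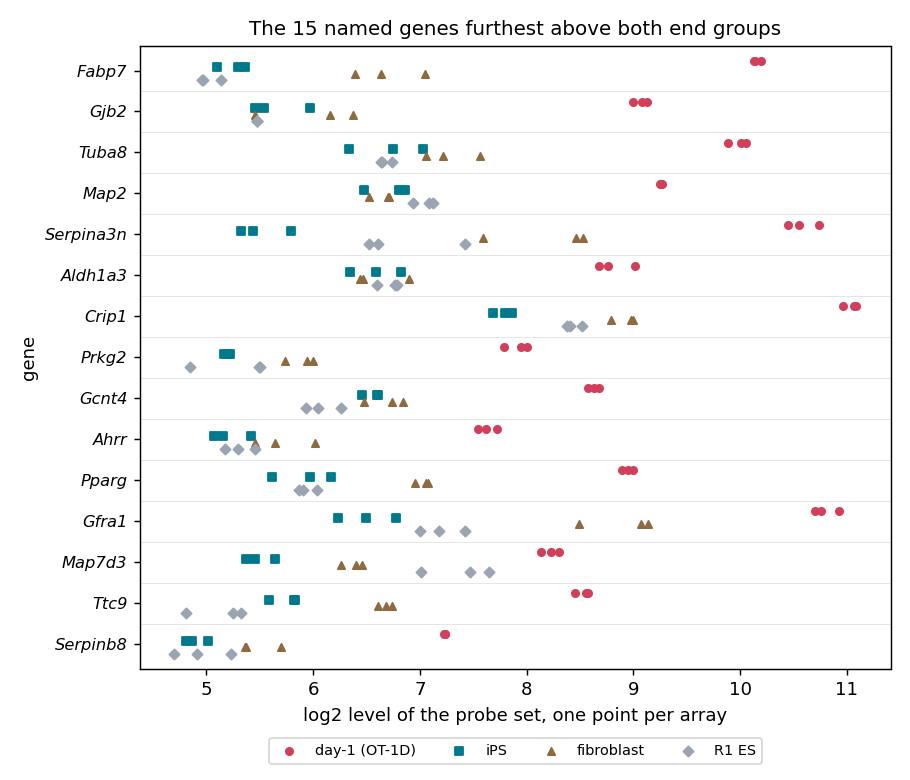
Log2 level on each of the 12 arrays (x axis) for the 15 named genes with the furthest overshoot above both ends (rows), with day-1 circles, iPS squares, fibroblast triangles and R1 ES diamonds. The day-1 points of every gene lie to the right of all iPS and fibroblast points, from Fabp7 with an overshoot of 3.47 to Serpinb8 with 1.76.

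Genes tied to the aryl hydrocarbon receptor were put together after their values had been seen. The receptor, encoded by Ahr, is a ligand-activated transcription factor that pairs with Arnt and switches on detoxifying enzymes and its own repressor. Ahr had 9.41, 9.50 and 9.49 in day-1 cells, 7.92, 7.73 and 7.79 in the iPS line and 8.63, 8.18 and 8.31 in fibroblasts, an overshoot of 1.10 ± 0.10 (adjusted p = 9.7e-06) that came to 1.00 and lost its call without the second fibroblast array. Ahrr, the repressor that competes for Arnt, had 7.72, 7.55 and 7.62 in day-1 cells, 5.07, 5.42 and 5.16 in the iPS line and 6.02, 5.64 and 5.46 in fibroblasts. Those day-1 arrays were at least 1.5 above any end array, and the overshoot was 1.92 ± 0.13, 3.79-fold (adjusted p = 7.6e-07). Nqo1, a quinone reductase that this receptor and NRF2 both induce, had 10.22, 10.28 and 10.26 in day-1 cells, 7.90, 7.81 and 7.91 in the iPS line and 9.28, 8.70 and 8.85 in fibroblasts, an overshoot of 1.30 ± 0.14 (adjusted p = 2.8e-05). Aldh1a3, which makes retinoic acid from retinal, was added to these genes and had 8.76, 8.68 and 9.02 in day-1 cells, 6.35, 6.59 and 6.82 in the iPS line and 6.90, 6.44 and 6.47 in fibroblasts. The ends were level for Aldh1a3 and day-1 cells lay 2.22 ± 0.14 above them, 4.65-fold (adjusted p = 4.6e-07). Of 8 genes measured on this list, these 4 were called above both ends and 0 below, where 0.996% and 0.587% of all genes were. The median departure was 1.22, against 0.12 for all genes. The count supports nothing by itself because of how the list was made. Cyp1b1, a standard target, lay above both by 0.13 ± 0.11 (adjusted p = 0.93), and its mean levels were 10.61 in day-1 cells, 8.60 in the iPS line and 10.48 in fibroblasts. Tiparp, a target with a repressor role, was above both by 0.10 ± 0.08 (adjusted p = 0.85), and Arnt was between the ends. In the NRF2 list of 22, Nqo1 was the only gene called, where 0.996% of all genes were called above both ends. Srxn1 (overshoot 0.80) and Gclm (0.41), which act in thiol redox and glutathione synthesis, had adjusted p-values under 0.05 and lay under the 2-fold minimum, and Hmox1 was between the ends.

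In the BMP and Id list the called genes were Smads and Ids, and no ligand was among them. BMP ligands act through receptor-activated Smads, and the Id genes, whose products block basic helix-loop-helix factors, are their classic targets. Smad9, a receptor-activated Smad of the BMP branch also known as Smad8, had 8.19, 8.12 and 8.06 in day-1 cells, 6.20, 6.18 and 6.15 in the iPS line and 6.70, 6.49 and 6.43 in fibroblasts, an overshoot of 1.58 ± 0.07, 2.98-fold (adjusted p = 4.8e-08). Smad6, the inhibitory Smad that BMP signalling induces, had 8.92, 8.85 and 8.88 in day-1 cells, 7.28, 7.20 and 7.41 in the iPS line and 8.0, 7.67 and 7.85 in fibroblasts. Its overshoot of 1.04 ± 0.10 (adjusted p = 1.4e-05) dropped to 0.96, without a call, when the second fibroblast array was left out. Id1 had 10.33, 10.43 and 10.44 in day-1 cells, 8.69, 8.35 and 8.41 in the iPS line and 9.23, 8.88 and 8.86 in fibroblasts, with an overshoot of 1.41 ± 0.13 (adjusted p = 8e-06). Id2 had 11.14, 11.17 and 11.21 in day-1 cells, 10.08, 10.13 and 10.18 in the iPS line and 9.93, 9.99 and 9.89 in fibroblasts, an overshoot of 1.04 ± 0.09 (adjusted p = 3.7e-06) that fell under the limit after quantile normalization (0.84) and with a common median (0.79). For Id2 the iPS line, and not the fibroblasts, was the nearer end. Id3 lay above both ends by 0.81 ± 0.10 (adjusted p = 6.3e-05), short of 2-fold, while Id4 was between them. Of the 4 ligand genes, Bmp7 and Gdf10 were between the ends, and Bmp2 (overshoot -0.07 ± 0.25, adjusted p = 1) and Gdf6 (-0.06 ± 0.10, adjusted p = 1) were below both by little. The antagonists Grem1 and Bmper were between as well. In all, 4 of 13 genes were called above both and 0 below, where 0.996% and 0.587% of all genes were, and 3 were above after either rescaling. The median departure was 1.03 against 0.12 for all genes. Most of it came from the iPS side, since the median day-1 difference was 0.28 from fibroblasts and 1.24 from the iPS line. Atoh8, a basic helix-loop-helix factor reported as a BMP target in other cells and not on the list, was called above both at 9.84 in day-1 cells, 6.71 in the iPS line and 8.34 in fibroblasts, an overshoot of 1.5 ± 0.11 (adjusted p = 1.5e-06).

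**Figure D3:**
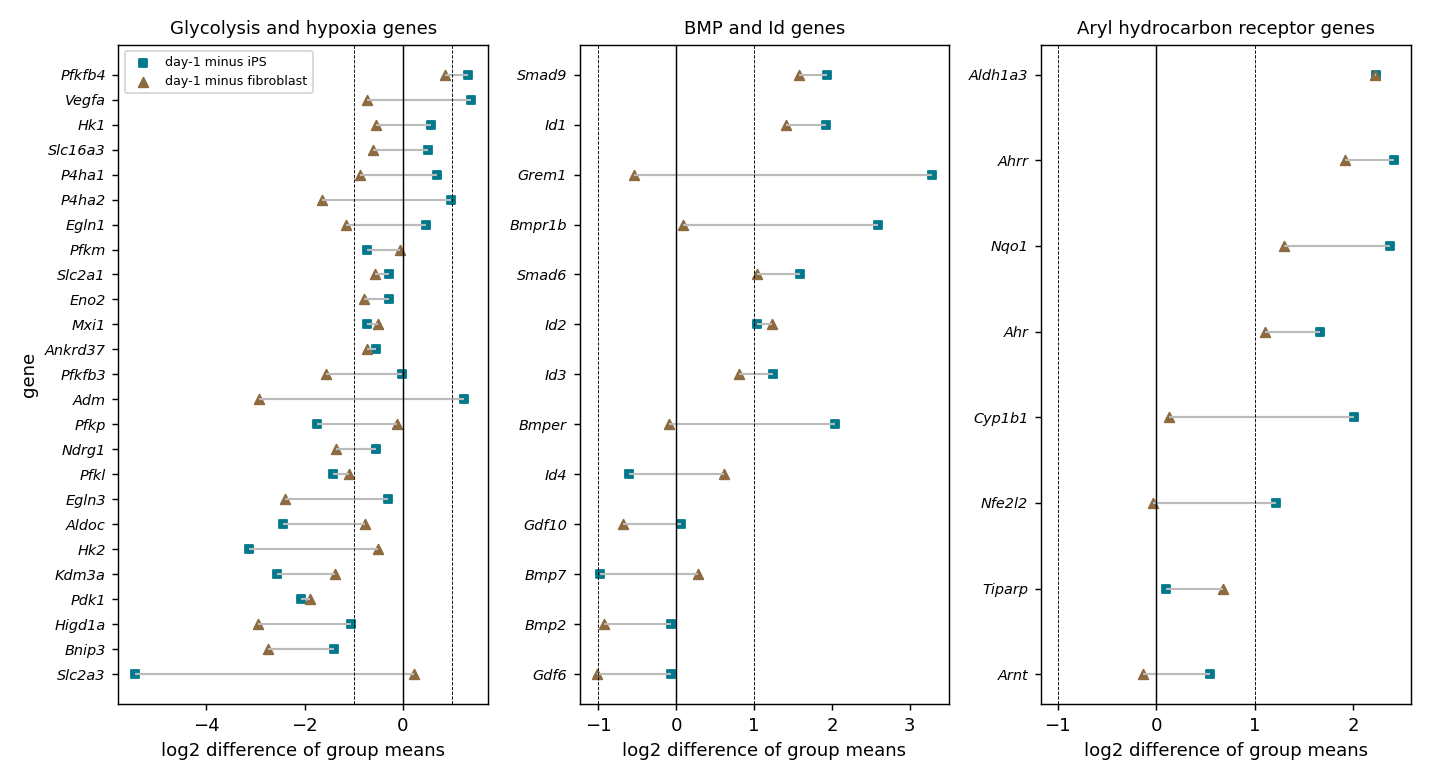
For each measured gene of 3 lists (rows), the log2 difference of day-1 cells from iPS cells (squares) and from fibroblasts (triangles) is joined by a line, and a gene is outside both ends when both marks fall on the same side of 0. In the glycolysis and hypoxia list 16 of 25 genes have both marks left of 0, in the BMP and Id list 6 of 13 have both right of 0, and in the aryl hydrocarbon receptor list, chosen after values were seen, 6 of 8 do.

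Plau, the urokinase plasminogen activator, had 10.36, 10.49 and 10.42 in day-1 cells, 7.97, 7.92 and 7.91 in the iPS line and 9.26, 9.03 and 9.09 in fibroblasts, an overshoot of 1.30 ± 0.13 (adjusted p = 1.8e-05). Plaur, its receptor, had 9.86, 10.03 and 10.13 in day-1 cells, 8.45, 8.35 and 8.57 in the iPS line and 9.24, 8.72 and 8.61 in fibroblasts, an overshoot of 1.15 ± 0.15 (adjusted p = 0.00014). Both the enzyme and the receptor were thus higher than in either end. Serpinb2, an inhibitor of that enzyme, had 8.93, 9.36 and 9.28 in day-1 cells, 5.33, 5.04 and 4.89 in the iPS line and 8.42, 7.67 and 7.72 in fibroblasts. It scattered more, and its overshoot of 1.25 ± 0.31 (adjusted p = 0.013) lost its call without the second day-1 array (1.17), the second fibroblast array (1.12) or the third fibroblast array (1.15). Serpina3n, an acute-phase inhibitor of leukocyte proteases, had 10.74, 10.45 and 10.55 in day-1 cells, 5.33, 5.79 and 5.44 in the iPS line and 7.59, 8.46 and 8.53 in fibroblasts. It lay 2.38 ± 0.26 above the fibroblasts, 5.22-fold (adjusted p = 3.2e-05), and 5.06 ± 0.26 above the iPS cells, where the gene was lowest. Serpinb8 (7.24 in day-1 cells, 4.90 in the iPS line and 5.48 in fibroblasts) and Serpinb1a (8.55 in day-1 cells, 6.83 in the iPS line and 7.05 in fibroblasts), an inhibitor of neutrophil proteases, had overshoots of 1.76 ± 0.12 (adjusted p = 9.6e-07) and 1.5 ± 0.21 (adjusted p = 0.00021). Of 8 serpins of clades A and B, a list made after values were seen, 4 were called above both, 7 had means above both and 0 were below. A wider list of 26 measured proteases and inhibitors had 8 day-1 means above both ends (30.8%, against 25.9% of all genes) and 1 below (3.8%, against 15.7%). It held 4 genes called above both (Plau, Plaur, Serpinb2 and Serpina3n) and 1 below, Adamts9, an aggrecan-cleaving protease at 7.08 in day-1 cells, 8.41 in the iPS line and 8.53 in fibroblasts (overshoot -1.33 ± 0.19, adjusted p = 0.00026), where 0.996% and 0.587% of all genes were called above and below. Stromelysin and collagenase genes were not outside the ends: Mmp3, Mmp10 and Mmp13 were between the ends, below fibroblasts and above iPS cells.

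Contractile and TGF-beta genes lay above both ends more often than they were called. Of 14 contractile genes, 11 had day-1 means above both ends (78.6%, against 25.9% of all genes) and 0 below (against 15.7%). Of these 2 were called, where 0.996% of all genes were called above both. Actg2, the gamma actin of enteric smooth muscle, had 11.69, 11.63 and 11.67 in day-1 cells, 9.49, 9.49 and 9.33 in the iPS line and 10.45, 10.10 and 10.14 in fibroblasts, an overshoot of 1.43 ± 0.16 (adjusted p = 4.2e-05). Ankrd1, a titin-binding repeat protein that responds to YAP and serum response factor, had 9.74, 9.98 and 9.88 in day-1 cells, 8.34, 8.42 and 8.57 in the iPS line and 8.51, 7.58 and 7.69 in fibroblasts, an overshoot of 1.42 ± 0.29 (adjusted p = 0.0041). Its fibroblast arrays spread more than its day-1 arrays, and the iPS line was the nearer end. Next came Acta1, skeletal actin, at 0.86 ± 0.17 (adjusted p = 0.003) and Cnn1, calponin, at 0.75 ± 0.17 (adjusted p = 0.0061), both short of 2-fold, whereas Acta2, smooth muscle actin, was level with fibroblasts (13.12 in day-1 cells, 12.35 in the iPS line and 13.11 in fibroblasts). In the TGF-beta list, 8 of 14 had means above both, 0 below and 2 were called. Tgfbi, a secreted matrix protein induced by TGF-beta, had 11.03, 10.71 and 10.72 in day-1 cells, 8.56, 8.62 and 8.69 in the iPS line and 9.39, 9.73 and 9.71 in fibroblasts, an overshoot of 1.21 ± 0.15 (adjusted p = 8e-05). Fst, follistatin, which binds activin, had 11.10, 11.06 and 11.12 in day-1 cells, 8.76, 8.54 and 8.89 in the iPS line and 10.08, 9.85 and 9.89 in fibroblasts, an overshoot of 1.15 ± 0.11 (adjusted p = 1.5e-05). For both genes all day-1 arrays were higher than every fibroblast array. Ccn2, connective tissue growth factor, exceeded both ends by 0.76 ± 0.13 (adjusted p = 0.00089) and was not called. Of the ligands, Tgfb1 exceeded both by 0.44 ± 0.08 and Tgfb2 by 0.60 ± 0.10 (adjusted p = 0.0016 and 0.00079), and neither reached 2-fold.

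Matrix genes lay near the fibroblast level: 13 of 35 had means above both ends (37.1%, against 25.9% of all genes) and 1 below both (2.9%, against 15.7%). Called above both was 1 gene, where 0.996% of all genes were. That gene was Ogn, osteoglycin, a small leucine-rich proteoglycan with 9.25, 8.90 and 9.18 in day-1 cells, 7.56, 7.52 and 7.74 in the iPS line and 7.48, 7.42 and 7.81 in fibroblasts and an overshoot of 1.5 ± 0.11 (adjusted p = 1.8e-06). The next was Col6a3, a chain of type VI collagen, which fell just short: its overshoot rounds to 1.00. The list mean per array was 10.44 to 10.52 in day-1 cells, 8.60 to 8.71 in the iPS line and 10.41 to 10.66 in fibroblasts. The R1 ES arrays had 7.37 to 7.66, and 31 of the 35 genes were higher in the iPS line than in ES cells. The iPS line was grown on feeder fibroblasts. Whether feeder RNA remained on its arrays, and any part of it in the calls, was not tested. With R1 ES cells in place of the iPS line, 98 genes were called above both and 79 below, of which 84 and 43 were shared with the calls made against the iPS line.

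Pparg, the nuclear receptor of adipocyte differentiation, had 8.89, 8.95 and 9.0 in day-1 cells, 5.97, 6.17 and 5.62 in the iPS line and 7.06, 6.96 and 7.08 in fibroblasts, an overshoot of 1.92 ± 0.11, 3.77-fold (adjusted p = 2.7e-07). Of the other 3 adipocyte genes measured, Fabp4 lay above both by 0.39 ± 0.12 (adjusted p = 0.039) and Lpl and Cd36 were between the ends. The mean of the 4 per array was 7.05 to 7.18 in day-1 cells, 5.67 to 5.79 in the iPS line and 6.50 to 6.76 in fibroblasts. Gfra1, the co-receptor for the neurotrophic factor GDNF, had 10.93, 10.76 and 10.70 in day-1 cells, 6.23, 6.78 and 6.50 in the iPS line and 8.49, 9.14 and 9.07 in fibroblasts, an overshoot of 1.90 ± 0.18 (adjusted p = 9.3e-06). Prkg2, a cyclic GMP-dependent protein kinase, had 8.0, 7.95 and 7.79 in day-1 cells, 5.22, 5.20 and 5.17 in the iPS line and 5.94, 5.74 and 6.0 in fibroblasts, an overshoot of 2.02 ± 0.15 (adjusted p = 1.1e-06). In Pparg, Gfra1 and Prkg2 the day-1 arrays were above all fibroblast arrays, and the iPS line was lowest. Adcyap1r1, the receptor of the peptide PACAP, was 8.86 in day-1 cells, 6.38 in the iPS line and 7.36 in fibroblasts, and Prkar2a, a regulatory subunit of protein kinase A, was 11.01 in day-1 cells, 9.32 in the iPS line and 9.62 in fibroblasts, both called above both ends and chosen after their values were seen. Wnt2, a secreted Wnt ligand and the only gene called of 24 in the Wnt pathway, was 7.28 in day-1 cells, 5.59 in the iPS line and 5.84 in fibroblasts, an overshoot of 1.44 ± 0.14 (adjusted p = 1.3e-05). Dusp4, a nuclear phosphatase of MAP kinases, was the only gene called of 16 in MAP kinase feedback (9.14 in day-1 cells, 7.75 in the iPS line and 7.68 in fibroblasts), with an overshoot of 1.39 ± 0.18 (adjusted p = 0.00014). Vgf, a secreted neuropeptide precursor induced by growth factors, was the only gene called of 24 immediate early genes (7.31 in day-1 cells, 5.98 in the iPS line and 5.81 in fibroblasts), with 1.34 ± 0.14 (adjusted p = 2.3e-05). Beside these counts, 0.996% of all genes were called above both ends and 0.587% below. A single called gene says little of its list. Socs2, a feedback inhibitor of cytokine receptors, was above both by 0.88 ± 0.08 (adjusted p = 1.2e-05) and so short of the rule. Its mean was 10.75 in day-1 cells, 9.87 in the iPS line and 8.15 in fibroblasts, and R1 ES cells had 10.81.

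The remaining named rises were of mixed kinds. Crip1, a small LIM protein, had 11.07, 10.96 and 11.09 in day-1 cells, 7.80, 7.86 and 7.69 in the iPS line and 8.79, 8.98 and 9.0 in fibroblasts, an overshoot of 2.12 ± 0.08 (adjusted p = 1.1e-08). None of the 3 groups overlapped another. Gcnt4, a glycan-branching transferase, was 8.63 in day-1 cells, 6.56 in the iPS line and 6.69 in fibroblasts, and Ttc9, a tetratricopeptide protein, was 8.53 in day-1 cells, 5.75 in the iPS line and 6.68 in fibroblasts. C1qb, a chain of complement C1q that macrophages make, was 7.56 in day-1 cells, 5.30 in the iPS line and 6.08 in fibroblasts, an overshoot of 1.48 ± 0.12 (adjusted p = 2.7e-06). Of 12 macrophage markers, C1qb was the only gene called, where 0.996% of all genes were called above both ends. Among the 12, 5 had day-1 means above both ends (41.7%, against 25.9% of all genes) and 1 below (8.3%, against 15.7%). By limma's adjusted p alone 2 were above both. C1qc was above both by 0.74 ± 0.18 (adjusted p = 0.013). Adgre1, which encodes a macrophage surface receptor, was 5.46 in day-1 cells, 4.78 in the iPS line and 7.46 in fibroblasts, and Lyz2, lysozyme, was 9.21 in day-1 cells, 5.65 in the iPS line and 10.24 in fibroblasts, both between the ends. The macrophage list mean per array was 7.15 to 7.30 in day-1 cells, 6.06 to 6.11 in the iPS line and 7.33 to 7.59 in fibroblasts, so it did not exceed the fibroblasts, and its part in the C1qb rise was not tested. Car2, carbonic anhydrase 2, was 8.32 in day-1 cells, 7.13 in the iPS line and 6.03 in fibroblasts and higher still in R1 ES cells (9.87), the single rise called lower than ES cells. Neil3, a DNA glycosylase, was 7.69 in day-1 cells, 6.25 in the iPS line and 6.67 in fibroblasts with an overshoot of 1.02 ± 0.11 (adjusted p = 4.3e-05), a call that ended without the first day-1 array (1.00), the first fibroblast array (1.00) or the second fibroblast array (0.99), after quantile normalization (0.92), with R1 ES cells as the end (0.58) and by treat. At the limit itself, Galnt9 (1.0) and Atp6v0d2 (1.01) were just inside, and Col6a3 (1.0) and Fam111a (1.0), both under 1 before rounding, just outside. Galnt9 lost its call without the second iPS array (1.00), the third iPS array (0.91) or the third fibroblast array (0.87), with a common median (0.75), after quantile normalization (0.89), with array weights (0.98), with R1 ES cells as the end (0.68) and by limma's treat at 1.5-fold. Atp6v0d2 lost it without the first (0.91) or the third (0.92) day-1 array, or the first (0.95) or the third (0.99) fibroblast array, after quantile normalization (0.95), with array weights (0.93) and by treat.

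Among the dips, genes of glycolysis and the hypoxia response formed the largest listed group. Many of these genes are driven by the hypoxia-inducible factors, which bind the core sequence ACGTG in DNA and turn on glycolysis when oxygen is short. Pdk1, the kinase that shuts off pyruvate dehydrogenase, had 7.21, 6.83 and 7.02 in day-1 cells, 8.99, 9.14 and 9.15 in the iPS line and 8.60, 8.94 and 9.14 in fibroblasts. The end groups overlapped each other and all day-1 arrays were lower, and the overshoot was -1.88 ± 0.13, 3.68-fold lower (adjusted p = 7e-07). Bnip3, a mitochondrial receptor for mitophagy, had 8.51, 8.27 and 8.40 in day-1 cells, 9.85, 9.77 and 9.79 in the iPS line and 10.83, 11.35 and 11.25 in fibroblasts, an overshoot of -1.41 ± 0.12 (adjusted p = 3.9e-06). Fibroblasts were the higher end for Bnip3, and day-1 cells were below the iPS line as well. Kdm3a, a histone H3 lysine demethylase that hypoxia induces, had 7.70, 7.82 and 7.77 in day-1 cells, 10.27, 10.35 and 10.35 in the iPS line and 9.01, 9.17 and 9.23 in fibroblasts, an overshoot of -1.38 ± 0.08 (adjusted p = 2.2e-07). Pfkl, the liver-type phosphofructokinase, had 9.34, 9.31 and 9.30 in day-1 cells, 10.76, 10.69 and 10.79 in the iPS line and 10.34, 10.40 and 10.52 in fibroblasts, an overshoot of -1.10 ± 0.07 (adjusted p = 3.2e-07). Higd1a, a mitochondrial protein induced by hypoxia, had 6.32, 6.34 and 6.37 in day-1 cells, 7.42, 7.35 and 7.41 in the iPS line and 8.96, 9.38 and 9.55 in fibroblasts, an overshoot of -1.05 ± 0.12 (adjusted p = 4.2e-05).

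Those 5 of 25 measured genes were called below both ends and 0 above, where 0.587% of all genes were called below. Of the 25, 16 had day-1 means below both ends (64.0%, against 15.7% of all genes), and 11 of these passed on adjusted p alone. The median departure was -0.78. The counts of 5 called and of 16 means below both were the same after quantile normalization and with a common median. Aldoc, aldolase C, had an overshoot of -0.77 ± 0.15 (adjusted p = 0.0025), Ndrg1 of -0.54 ± 0.13 (adjusted p = 0.0088), Ankrd37 of -0.54 ± 0.14 (adjusted p = 0.015) and the hexokinase Hk2 of -0.50 ± 0.07 (adjusted p = 0.00022). These 4 stayed within 2-fold of the nearer end. The exceptions were Pfkfb4, a regulator of phosphofructokinase, which was above both by 0.85 ± 0.11 (adjusted p = 0.00015), and Vegfa, Adm, Egln1, P4ha1, P4ha2, Slc16a3, Hk1 and Slc2a3, which lay between. Genes off the list with a role in energy supply also dipped, and these were picked after their values were seen: Slc16a1, the lactate and pyruvate carrier MCT1 (9.20 in day-1 cells, 10.96 in the iPS line and 10.62 in fibroblasts, overshoot -1.42 ± 0.12), Ak4, a mitochondrial adenylate kinase (6.75 in day-1 cells, 9.37 in the iPS line and 8.01 in fibroblasts, -1.26 ± 0.18), Mgarp, a mitochondrial protein of the hypoxia response (5.91 in day-1 cells, 7.10 in the iPS line and 7.33 in fibroblasts, -1.19 ± 0.16), Cox17, a copper chaperone of cytochrome oxidase (6.44 in day-1 cells, 9.03 in the iPS line and 7.68 in fibroblasts, -1.24 ± 0.11), and Nampt, the enzyme of NAD salvage (8.62 in day-1 cells, 10.52 in the iPS line and 9.86 in fibroblasts, -1.24 ± 0.07).

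The promoters of rises and dips were read for that core sequence. RefSeq promoters on GRCm38.p6 (the 250 bases before the start) were taken for genes with a single promoter in the table, 54 of the rises, 37 of the dips and 5995 of all genes. ACGTG on either strand was in 13 of 37 dip promoters (35.1%), in 6 of 54 rise promoters (11.1%) and in 1297 of all 5995 (21.6%). CACGTG, the E-box, contains ACGTG on both strands and was in 16.2% of dip, 5.6% of rise and 8.3% of all promoters. This is a description of letters, and the ACGTG search was added after the dips had been seen. The promoters printed were picked by hand and each holds a match, which most dip promoters did not. Of the called genes on the glycolysis and hypoxia list, only Bnip3 is printed. The 3 promoters shown are those of a mitophagy receptor, a mitochondrial protein and the lactate carrier, at chr7:138909507-138909756 (- strand), chr3:51396548-51396797 (- strand) and chr3:104638414-104638663 (+ strand), each 5′ to 3′ in the direction of transcription, with ACGTG matches on either strand in capitals.
Bnip3: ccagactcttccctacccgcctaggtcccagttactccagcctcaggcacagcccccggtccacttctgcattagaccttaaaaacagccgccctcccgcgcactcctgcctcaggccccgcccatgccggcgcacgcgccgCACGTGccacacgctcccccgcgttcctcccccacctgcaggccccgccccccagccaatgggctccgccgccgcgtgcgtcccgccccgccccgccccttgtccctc
Mgarp: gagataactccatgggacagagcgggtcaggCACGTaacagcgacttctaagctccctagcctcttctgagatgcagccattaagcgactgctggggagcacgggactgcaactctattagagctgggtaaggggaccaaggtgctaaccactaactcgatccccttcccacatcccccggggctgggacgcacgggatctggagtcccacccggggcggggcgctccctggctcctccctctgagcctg
Slc16a1: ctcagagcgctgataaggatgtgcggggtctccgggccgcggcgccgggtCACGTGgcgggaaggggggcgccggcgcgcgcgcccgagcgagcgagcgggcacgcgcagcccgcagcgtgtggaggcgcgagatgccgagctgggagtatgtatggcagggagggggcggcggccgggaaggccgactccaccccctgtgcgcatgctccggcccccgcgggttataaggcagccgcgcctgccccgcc
Bnip3 and Slc16a1 hold a CACGTG, which counts as a match on each strand, and Mgarp a single match on the opposite strand.

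Of the other motifs searched on both strands, the octamer ATGCAAAT bound by Oct4 with its partners was in 1 of 54 rise promoters (1.9%), 2 of 37 dip promoters (5.4%) and 1.5% of all. The cAMP response element TGACGTCA was in 0 of 54, in 3 of 37 (8.1%) and in 2.5%. AP-1 sites written TGANTCA were in 5.6%, 8.1% and 4.0%, and STAT sites written TTCNNNGAA in 3.7%, 8.1% and 5.8%, for rises, dips and all genes. The core TTGCGTG of the aryl hydrocarbon receptor, added later, was in 1.9%, 0.0% and 1.4%. Counts this small describe the windows read and no more.

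Metallothioneins, the small metal-binding proteins whose genes answer to zinc and other metals, were lower at day 1 than at either end. Mt1 had 10.82, 10.66 and 10.53 in day-1 cells, 12.25, 12.22 and 12.23 in the iPS line and 11.90, 12.17 and 12.18 in fibroblasts, an overshoot of -1.42 ± 0.09 (adjusted p = 4.1e-07). Mt2 had 11.87, 11.81 and 11.66 in day-1 cells, 12.84, 12.87 and 12.83 in the iPS line and 13.14, 13.20 and 13.27 in fibroblasts, an overshoot of -1.07 ± 0.07 (adjusted p = 5.7e-07). Both genes were bright on every array, and day-1 arrays lay about 1 or more under each end. Against R1 ES cells the dip was smaller: Mt1 stood at 11.34 and Mt2 at 11.90 there, and with ES cells as the end the overshoots were -0.67 and -0.12, neither called. A list of metal-response and zinc carrier genes was made after values were seen. Mt1 and Mt2 were the 2 of its 9 called below both, where 0.587% of all genes were. The zinc exporter Slc30a1, which shares their factor Mtf1, lay below both (overshoot -0.34 ± 0.19, adjusted p = 0.39), and Mtf1 above both by 0.18 ± 0.07 (adjusted p = 0.15). The pair sits side by side on chromosome 8, at chr8:94178839-94179088 (+ strand) and chr8:94172368-94172617 (+ strand) on GRCm38.p6 for the 250 bases shown. Matches on either strand to TGCNCNC, the core of metal response elements, are in capitals.
Mt1: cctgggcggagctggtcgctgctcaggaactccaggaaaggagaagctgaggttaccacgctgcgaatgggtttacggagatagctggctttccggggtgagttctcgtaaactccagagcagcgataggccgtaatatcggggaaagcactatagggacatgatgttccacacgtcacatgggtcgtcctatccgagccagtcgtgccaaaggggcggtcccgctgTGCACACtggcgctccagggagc
Mt2: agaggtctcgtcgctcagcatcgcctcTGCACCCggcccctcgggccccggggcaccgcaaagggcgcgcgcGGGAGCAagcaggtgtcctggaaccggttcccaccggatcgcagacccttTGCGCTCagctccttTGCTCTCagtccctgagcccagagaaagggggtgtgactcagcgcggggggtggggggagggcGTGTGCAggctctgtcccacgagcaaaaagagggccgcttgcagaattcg
That short core was in 70.4% of rise promoters, 54.1% of dip promoters and 52.6% of all, and it too was searched for after the values were seen.

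Some splicing regulators were among the dips. Tra2a, which binds exonic enhancers, had 6.82, 7.10 and 6.64 in day-1 cells, 9.94, 9.91 and 10.01 in the iPS line and 8.76, 8.93 and 9.02 in fibroblasts, an overshoot of -2.05 ± 0.11, 4.13-fold lower (adjusted p = 1.8e-07). Srsf5, a serine and arginine rich splicing factor, had 8.76, 9.02 and 8.76 in day-1 cells, 11.44, 11.43 and 11.45 in the iPS line and 10.10, 10.10 and 9.99 in fibroblasts, an overshoot of -1.22 ± 0.08 (adjusted p = 7.6e-07). The kinases that phosphorylate such factors were also under both ends, Clk1 (overshoot -0.42 ± 0.08, adjusted p = 0.0015) and Clk4 (-0.52 ± 0.08, adjusted p = 0.00073), short of 2-fold. Others did not follow, since Srsf1, Srsf2, Srsf3, Srsf4, Srsf6 and Tra2b were between and Srsf9 was above both by 0.26 ± 0.07 (adjusted p = 0.026). Of 13 such genes, a list made after values were seen, 2 were called below both and 0 above, where 0.587% and 0.996% of all genes were. Their median departure was -0.42, against 0.12 for all genes. The median day-1 difference was 0.19 from fibroblasts and -1.16 from the iPS line, against 0.05 and 0.34 for all genes. The departure of the list thus came from the iPS side. Day-1 means were below both ends in 6 of the 13 (46.2%, against 15.7% of all genes) and above both in 1 (7.7%, against 25.9%). Of ribosomal protein genes called below both, Rpl9 had 9.57, 9.56 and 9.77 in day-1 cells, 11.67, 11.71 and 11.67 in the iPS line and 11.51, 11.61 and 11.40 in fibroblasts (overshoot -1.88 ± 0.08, adjusted p = 1.6e-08) and Rps29, also chosen after its value was seen, was 10.82 in day-1 cells, 11.91 in the iPS line and 11.98 in fibroblasts (-1.08 ± 0.07, adjusted p = 5.2e-07). Ribosomal protein genes have many near-identical pseudogenes, so such probe sets are uncertain. The ribosome biogenesis list had 0 of 25 genes called in either direction, and 24 of its 25 day-1 means were between the ends.

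**Figure D4:**
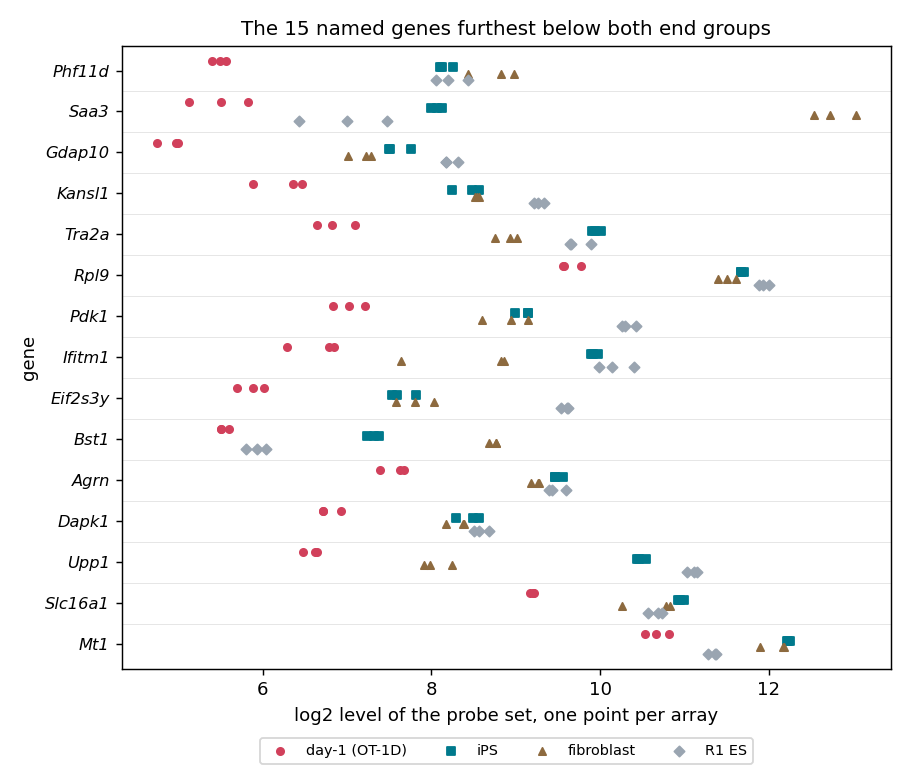
Log2 level on each of the 12 arrays (x axis) for the 15 named genes with the furthest overshoot below both ends (rows), with day-1 circles, iPS squares, fibroblast triangles and R1 ES diamonds. The day-1 points of every gene lie to the left of all iPS and fibroblast points, from Phf11d with an overshoot of -2.68 to Mt1 with -1.42.

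Immune genes were lower in day-1 cells than in fibroblasts, and some of them were also lower than in the iPS line. Phf11d, a PHD finger protein, had 5.56, 5.40 and 5.49 in day-1 cells, 8.10, 8.26 and 8.12 in the iPS line and 8.43, 8.82 and 8.98 in fibroblasts, the furthest dip at -2.68 ± 0.13, 6.4-fold lower (adjusted p = 5.4e-08). Saa3, an acute-phase serum amyloid, had 5.12, 5.50 and 5.83 in day-1 cells, 8.07, 7.99 and 8.13 in the iPS line and 12.54, 12.73 and 13.03 in fibroblasts. Day-1 cells were over 6 log2 units below fibroblasts and were also below the iPS line, with an overshoot of -2.58 ± 0.23 (adjusted p = 6.4e-06). Ifitm1, an interferon-induced membrane protein also found in germ cells and pluripotent cells, had 6.84, 6.29 and 6.79 in day-1 cells, 9.92, 9.97 and 9.89 in the iPS line and 7.64, 8.86 and 8.83 in fibroblasts, an overshoot of -1.80 ± 0.26 (adjusted p = 0.00033). Bst2, tetherin, was 8.14 in day-1 cells, 9.19 in the iPS line and 10.70 in fibroblasts, an overshoot of -1.05 ± 0.22 (adjusted p = 0.0041), and Bst1, a surface enzyme that makes cyclic ADP-ribose, was 5.54 in day-1 cells, 7.31 in the iPS line and 8.74 in fibroblasts, an overshoot of -1.78 ± 0.08 (adjusted p = 1.6e-08). In R1 ES cells Bst2 was 8.58 and Bst1 5.92, and neither was called with ES cells as the end (overshoots of -0.44 and -0.39). Of 21 interferon genes, 19 were called lower than in fibroblasts, where 4.33% of all genes were. Lower than both ends was 1, Bst2, where 0.587% of all genes were. Of 24 inflammatory genes, 19 were called lower than in fibroblasts and 1, Saa3, lower than both ends. Day-1 means were below both ends in 7 of the 21 interferon genes (33.3%) and 9 of the 24 inflammatory genes (37.5%), against 15.7% of all genes. Means above both ends numbered 0 in either list. By limma's adjusted p alone 3 interferon and 5 inflammatory genes were below both, where 6.31% of all genes were. The median day-1 minus iPS difference was 0.28 log2 in the interferon list and 0.87 in the inflammatory list. Nfkbia, the inhibitor of NF-kB, and Icam1, an adhesion molecule, were nearest to a call among the rest, at -0.89 ± 0.09 (adjusted p = 2.1e-05) and -0.95 ± 0.11 (adjusted p = 4.5e-05). With a common median 3 inflammatory genes were called below both, and with quantile normalization 2.

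Stress, signalling and chromatin genes contributed single dips. Trp53inp1, a p53-induced regulator of cell death and autophagy, had 9.83, 9.60 and 9.69 in day-1 cells, 10.95, 10.90 and 10.92 in the iPS line and 10.92, 11.08 and 11.19 in fibroblasts, an overshoot of -1.22 ± 0.08 (adjusted p = 6.4e-07). Gadd45a, a p53-induced stress protein also studied in DNA demethylation, had 7.47, 7.28 and 7.30 in day-1 cells, 9.83, 9.62 and 9.68 in the iPS line and 8.15, 8.73 and 8.68 in fibroblasts, an overshoot of -1.17 ± 0.13 (adjusted p = 3.8e-05). These were the 2 of 12 genes on the p53 and senescence list called below both, and 0 were above. Of all genes 0.587% were called below both and 0.996% above. Dapk1, a death-associated kinase, was 6.79 in day-1 cells, 8.45 in the iPS line and 8.31 in fibroblasts (overshoot -1.52 ± 0.09, adjusted p = 3.4e-07). Agrn, agrin, a heparan sulphate proteoglycan, was 7.57 in day-1 cells, 9.50 in the iPS line and 9.24 in fibroblasts (overshoot -1.67 ± 0.09, adjusted p = 8.7e-08). Upp1, uridine phosphorylase, was 6.58 in day-1 cells, 10.48 in the iPS line and 8.05 in fibroblasts, with an overshoot of -1.47 ± 0.09 past fibroblasts (adjusted p = 3.2e-07) and a difference of -3.90 ± 0.09 from the iPS line. Of the 2 ends the iPS line was the higher, so the fibroblasts were the nearer end. Kansl1, a subunit of a histone acetyltransferase complex, had 5.89, 6.46 and 6.36 in day-1 cells, 8.57, 8.25 and 8.48 in the iPS line and 8.54, 8.52 and 8.57 in fibroblasts, an overshoot of -2.20 ± 0.13 (adjusted p = 2.2e-07). The end groups overlapped each other and the day-1 arrays lay apart. Gdap10 was 4.91 in day-1 cells, 7.59 in the iPS line and 7.17 in fibroblasts (overshoot -2.26 ± 0.10, adjusted p = 2.6e-08). Peg3, an imprinted zinc finger gene expressed from the paternal copy, was 8.33 in day-1 cells, 9.55 in the iPS line and 9.55 in fibroblasts, the only gene called of 14 imprinted genes (overshoot -1.22 ± 0.09, adjusted p = 1.7e-06), and R1 ES cells were also low (8.70).

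The measured Y-linked genes differed in position at day 1. Eif2s3y, a translation initiation factor gene on the Y chromosome, had 6.02, 5.88 and 5.70 in day-1 cells, 7.59, 7.53 and 7.82 in the iPS line and 7.58, 7.80 and 8.03 in fibroblasts, an overshoot of -1.78 ± 0.12 (adjusted p = 5.3e-07), with R1 ES cells at 9.59. Kdm5d, a demethylase gene also on the Y, was 6.77 in day-1 cells, 5.46 in the iPS line and 5.85 in fibroblasts, above both ends by 0.91 ± 0.11 (adjusted p = 8.1e-05), with ES cells at 4.92. Xist, made from the inactive X, was 4.19 in day-1 cells, 6.24 in the iPS line and 4.07 in fibroblasts. The labels give no sex of animals or lines, and the part of sex in the Eif2s3y dip was not tested.

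A microRNA precursor was among the dips. Mirlet7d, whose let-7 product represses Lin28 and Hmga2 messages in differentiated cells, had 5.75, 6.21 and 6.22 in day-1 cells, 7.39, 7.23 and 7.33 in the iPS line and 7.57, 7.63 and 7.72 in fibroblasts, an overshoot of -1.26 ± 0.12 (adjusted p = 1.4e-05). The probe set is annotated to the precursor gene, and nothing here measures the mature product. Its mature strands in RefSeq, on chromosome 13 of GRCm38.p6 at chr13:48536078-48536099 and chr13:48536024-48536045 (- strand), are printed with the seed, bases 2 to 8, in capitals, and the 5p strand has the seed of the let-7 family.
mmu-let-7d-5p: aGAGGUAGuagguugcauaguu
mmu-let-7d-3p: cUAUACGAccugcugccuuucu
Including it, 4 of the 56 dips and 2 of the 95 rises were small RNA genes or unnamed models. At the limit, Ccdc58 (-1.02) and Crebrf (-1.02) were just inside and Prelid2 (-1.0, under 1 in size before rounding) and Dnajb6 (-0.99) just outside. Ccdc58 lost its call without the first or the second day-1 array (-0.99 for either), and Crebrf without the second day-1 array (-0.91) or the third fibroblast array (-0.96), and after quantile normalization (-0.96).

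Several lists had no gene called outside both ends. Of 29 G2/M genes, 27 were called above fibroblasts and 9 below iPS cells, where 3.46% and 17.6% of all genes were. Of the same 29, 8 means were above both ends, and 0 were called above both. Cdk1, the mitotic kinase, was 11.05 in day-1 cells, 10.62 in the iPS line and 9.82 in fibroblasts, above both by 0.43 ± 0.08 (adjusted p = 0.0016). By limma's adjusted p alone 3 of these genes were above both, where 9.56% of all genes passed above and 6.31% below. Of 36 S-phase genes, 23 were above fibroblasts and 21 below iPS cells, and 0 were called outside, with 2 above both by adjusted p alone. Of 33 pluripotency genes, 30 were below iPS cells and 0 were called outside, with 3 below both by adjusted p alone: Klf4 at -0.54 ± 0.10, Tbx3 at -0.66 ± 0.12 and Tet2 at -0.88 ± 0.15. Of 25 Hox genes 10 means were above both (40.0%, against 25.9% of all genes), 2 below (8.0%, against 15.7%), and 0 were called, with 2 above both by adjusted p alone. Of 20 cholesterol genes 9 means were above both (45%, against 25.9% of all genes) and 2 below (10%, against 15.7%), led by the desaturase Fads1 at 0.59 ± 0.08 (adjusted p = 0.00014), and 0 were called, with 5 above and 1 below by adjusted p alone.

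**Figure D5:**
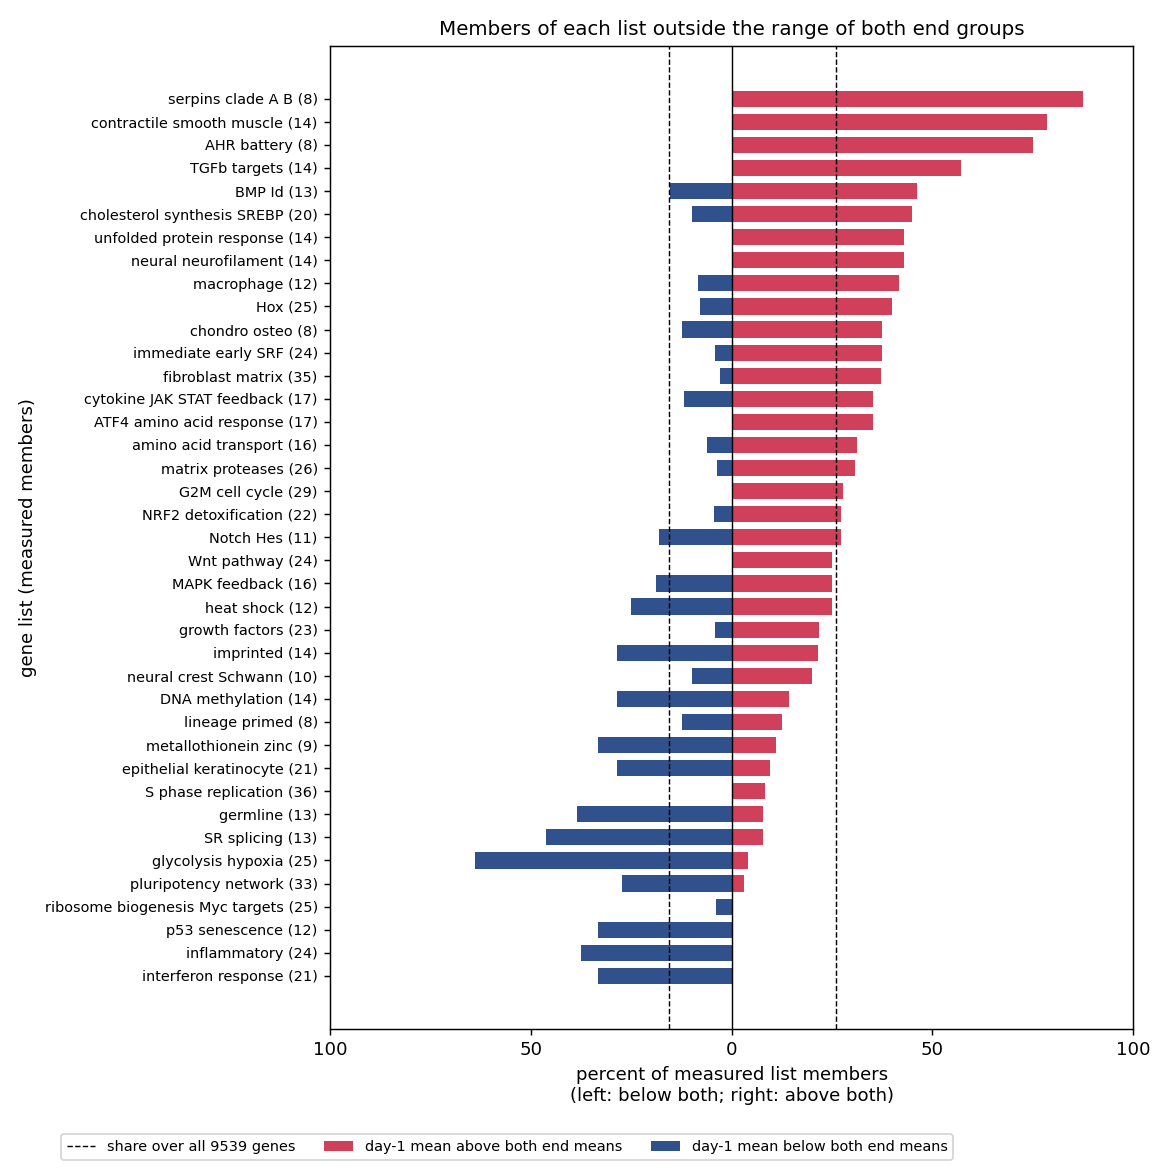
For each gene list with at least 8 measured genes (rows, number measured in brackets), bars give the percentage of its genes whose day-1 mean was above both end means (right) or below both (left), with no test. Dashed lines mark the shares over all 9539 genes, 25.9% above and 15.7% below, and the contractile list reaches 78.6% above while the glycolysis and hypoxia list reaches 64.0% below. The lists of serpins, aryl hydrocarbon receptor genes, metallothioneins and splicing factors were made after values were seen.

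R1 ES cells, which the rule did not use, give an outside level for the excursions. Of the 95 rises, 84 were called higher in day-1 cells than in ES cells and 1 lower, where 29.5% of all genes were called higher. Of the 56 dips, 43 were called lower than in ES cells and 1 higher, where 20.4% of all genes were called lower. The medians of the rises were 8.86 in day-1 cells, 6.52 in the iPS line and 7.36 in fibroblasts, and 6.48 in ES cells. The medians of the dips were 6.94 in day-1 cells, 9.06 in the iPS line and 8.59 in fibroblasts, and 9.19 in ES cells. The same day-1 arrays enter all of these differences, so the counts against ES cells describe the genes and are no independent test. Dips not called lower than ES cells included Mt2, Bst1 and Peg3, for which the ES level was itself under that of the iPS line.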

How the data were processed

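RNA of 12 samples of mouse cells was labelled with biotin by a whole-transcript kit and put on Affymetrix arrays, per the labels' protocols. The values used are log2 levels per probe set, as the authors deposited them in 1 table for the series. The scale was taken from the range, 2.43 to 13.64, since the table names none. How arrays were summarised and normalized was not given in the sources used here. Over the arrays, the range of every probe set was at least 0.51, so the table may hold only genes that vary, and shares of genes refer to them. Of 10360 probe sets, 9542 had 1 gene symbol, 344 several and 474 none. For 3 genes with more than 1 probe set the brightest was used, which left 9539 genes.

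A mean per group was fitted over all 12 arrays with limma 3.58.1 (R 4.3.3), with eBayes and Benjamini-Hochberg adjustment over the 9539 genes, and each p in the text is limma's. The overshoot is the smaller in size of the differences of the day-1 mean from the 2 end means, and its p is the larger of the 2 p-values, then adjusted. A p adjusted this way asks for both differences at once. SE is the standard error and SD the standard deviation, with 3 arrays per group. Both differences share the day-1 arrays. The members, lists and rule were chosen with earlier results of these data known. Named were, per direction, the 15 called genes furthest out whose arrays did not overlap, leaving out unnamed models and small RNAs, up to 4 called members per list, or the 2 brightest of a list with none called, the genes next to the limit, and Pou5f1, Tet1, Fabp7, Gjb2, Nes, Map2 and Socs2. Part of these is printed, and genes named beyond the rule, beside a list count or as further called genes, were chosen after their values were seen. The same replicate numbers did not pair the arrays: their deviations from the group means correlated at -0.21 to 0.06. The fit was also run on simulated data in which unchanged genes had day-1 means at the midpoint of the ends. Genes level with an end were not simulated, so false calls of that kind were not measured. Alternatives were quantile normalization, a common median, leaving out the dimmest 25% of genes, 9 arrays only, array weights, a prior that is trended and robust, a block for the replicate number, other fold minimums, treat, the mean of probe sets, R1 ES cells as the end, and leaving out each array. Promoters and miRNAs came from RefSeq tables on GRCm38.p6. Tables and plots used Python 3.11.15, pandas 2.3.3, numpy 2.4.6 and matplotlib 3.10.9.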

Additional observations from a re-analysis of the deposited data

How the results depend on the processing

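No named gene's overshoot turned its direction under any setting run, but the balance of calls against the midpoint did: 803 genes higher and 559 lower with values as deposited became 661 and 681 after quantile normalization and 583 and 721 with a common median. The counts of 95 genes above and 56 below both ends, and of 803 higher and 559 lower than the midpoint, moved by more than 1.5 times where the fold minimum was lowered or dropped. Without a fold minimum they were 912 above and 602 below both ends, and 4372 higher and 3200 lower than the midpoint. With a minimum of 0.58 log2 they were 344, 224, 2151 and 1438 in the same order. Limma's treat at 1.5-fold gave 1255 genes higher than the midpoint, also a move of that size. Its counts of 85 above, 51 below and 816 lower stayed within 1.5 times. So did those with R1 ES cells as the end, at 98, 79, 1110 and 656 in the same order as above. Without the dimmest 25% of genes, a setting in which fewer genes were tested, 55 were above both, also a move of that size, and 50 below. All of these were among the 95 and 56. Of the 63 named called genes, 44 were tested in that setting and kept their call. Fabp7, Gjb2, Pparg, Smad9 and Ahrr were among the named rises left out as dim. Their end groups had low levels, for Fabp7 5.26 in the iPS line and 6.69 in fibroblasts. The replicate block, fitted although the numbers do not pair the arrays, gave 95 above, 56 below, 803 higher and 559 lower, so it moved no count. Leaving out each array gave 94 to 104 above, 54 to 63 below, 778 to 826 higher and 543 to 571 lower. Under 19 settings that kept the call rule, the end groups and the genes tested, 71 of the 95 and 46 of the 56 were called every time. R1 ES cells as the end ended the calls of 10 of 63 named called genes, treat 7, quantile normalization 5 and the common median 2, and the cause was not tested. The number of arrays, 3 per group, limits the precision, as does the single iPS line.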
